A study of Mus musculus with 4 samples.

Results

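The 10 genes described here belong to RNA sensing and the interferon response. They are the sensors *Ifih1* and *Ddx58*, their adaptor *Mavs*, the signalling factors *Irf7*, *Irf9* and *Stat2*, and the interferon-induced genes *Isg15*, *Ifit1*, *Ifit3* and *Bst2*. They were picked by symbol, without a filter on low counts, and all 10 were found among the 55573 gene identifiers of the count lists. A count in at least 1 library was present for 30006 of these identifiers, and 16832 passed edgeR's expression filter, which sets aside genes with too few counts to test. Of the 10 genes, 7 passed this filter, whereas *Isg15*, *Ifit1* and *Bst2* did not and are given by their counts.

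RNA sequencing was performed on tdTomato-positive cells sorted by fluorescence (FACS) from mouse embryos at embryonic day (E) 16. All embryos carried *Hmx3-Cre* and the tdTomato reporter on a C57BL/6J background, so that the reporter marks cells of the *Hmx3* lineage. They were either wild-type for *Dnmt1*, the maintenance DNA methyltransferase (WT), or carried the *Dnmt1* loxP2 allele (KO). In this allele loxP sites surround exons 4 and 5, which Cre excises wherever *Hmx3* is active, and the shifted reading frame inactivates the gene in those cells only. Each genotype was represented by 2 libraries, from pools that the labels give as 12 WT and 6 KO embryos. The labels call these biological replicates, while the study's methods describe technical duplicates of pooled samples. P-values therefore measure the spread between these libraries, which may be technical. The tissue is named basal telencephalon in the labels and preoptic area in the study's text.

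Viral and other double-stranded RNA in the cytosol is bound by the helicases RIG-I and MDA5, which signal through MAVS on mitochondria to kinases that activate IRF3 and IRF7. These factors switch on type I interferon genes. Secreted interferon then signals through its receptor to a complex that contains STAT2 and IRF9 and binds the interferon-stimulated response element (ISRE) of antiviral genes. Derepressed endogenous retroviral RNA can also engage these sensors in cells that lose DNA methylation, which is why the pathway is often examined after loss of *Dnmt1*.

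The ISRE core was searched in the promoters of these genes, since the interferon-induced members are known for it. RefSeq promoter windows (GRCm38.p6) of 300 bases, 250 before and 50 after the annotated start, were searched for GAAA followed, after any 2 bases, by a further GAAA, on both strands (TTTC and TTTC when on the opposite one), and matches may overlap. The motif was found in 7 of the 10 genes (70%), in 21 of 69 matched other genes of the pathway (30.4%) and in 3.99% of 27025 RefSeq genes, or 3.44% of 32851 windows. A match describes letters in a window and not a bound site. The matching stretches are shown 5′ to 3′ on the strand of the gene, with up to 10 bases on either side and the motif in capitals.
*Ifih1*, chr2:62646206-62646233, minus strand, motif 32 bases after the start: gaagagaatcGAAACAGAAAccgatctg
*Ddx58*, chr4:40239804-40239833, minus strand, motif 2 bases after the start: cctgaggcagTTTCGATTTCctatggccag
*Stat2*, chr10:128270266-128270295, plus strand, motif 222 bases before the start: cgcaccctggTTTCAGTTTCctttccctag
*Isg15*, chr4:156200865-156200906, minus strand, first of 3 overlapping matches 78 bases before the start: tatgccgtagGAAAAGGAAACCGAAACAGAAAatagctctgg
*Ifit1*, chr19:34640775-34640823, plus strand, first of 2 matches 104 bases before the start: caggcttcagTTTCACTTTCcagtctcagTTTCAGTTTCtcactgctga
*Bst2*, chr8:71537577-71537612, minus strand, first of 2 overlapping matches 130 bases before the start: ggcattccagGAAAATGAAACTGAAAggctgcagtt

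The windows of *Ifit3* and *Mavs* are given as the whole 250 bases before the start, since these were the members whose level rose in KO. The *Ifit3* window holds the motif at 2 positions, the first 156 bases before the start, whereas the *Mavs* window holds none, as was the case for *Irf7* and *Irf9*.
*Ifit3*, chr19:34583279-34583528, plus strand: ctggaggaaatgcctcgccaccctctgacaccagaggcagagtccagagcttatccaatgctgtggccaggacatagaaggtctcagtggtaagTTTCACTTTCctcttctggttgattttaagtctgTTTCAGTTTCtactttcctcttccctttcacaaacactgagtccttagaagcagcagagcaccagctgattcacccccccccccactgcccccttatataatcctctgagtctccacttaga
*Mavs*, chr2:131233813-131234062, plus strand: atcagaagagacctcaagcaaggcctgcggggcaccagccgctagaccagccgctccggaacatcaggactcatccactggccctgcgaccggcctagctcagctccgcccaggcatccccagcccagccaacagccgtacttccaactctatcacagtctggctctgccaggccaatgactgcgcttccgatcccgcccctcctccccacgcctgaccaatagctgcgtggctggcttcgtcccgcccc

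The libraries held 8075102 to 9995968 counts, so that 3 counts were worth 0.294 to 0.372 CPM (counts divided by library sizes that were adjusted with TMM factors). Intervals and floors given for counts cover counting error only. The WT libraries differed from each other more than the KO libraries did (chi-square per degree of freedom 58.2 against 4.31). *Dnmt1* had 3103 and 4557 WT counts and 2383 and 2552 KO counts. Its log2 fold change was -0.56 (standard error, SE, 0.14, edgeR adjusted p = 0.0511), so that the targeted gene lay below WT in both KO libraries but just missed the threshold of 0.05. It passed without WT 1 (adjusted p = 1.82e-05) and without WT 2 (adjusted p = 0.00365), but not without KO 1 (adjusted p = 0.413) or KO 2 (adjusted p = 0.530). The counts do not resolve the deleted exons. *Hmx3* was read in every library, at 604 to 919 counts, as were *Gad1*, at 1066 to 1552 counts, and *Gad2*, at 1508 to 2027 counts.

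Between genotypes, *Mavs* and *Ifit3* were higher in KO and no member was lower, at an adjusted p under 0.05 in edgeR's quasi-likelihood test over all 16832 tested genes. In the same test 7.33% of all tested genes were higher and 0.57% lower in KO. The 2 called members are thus 2 of 10 genes, or 2 of the 7 that could be tested, a count too small to set apart from the background. At an unadjusted p under 0.05, *Ddx58*, *Ifit3*, *Mavs* and *Stat2* were higher in edgeR and none was lower, where 14.6% of all tested genes were higher and 8.01% lower. DESeq2 gave *Ifit3* and *Mavs* at an unadjusted as well as at an adjusted p under 0.05, and again none lower, with 6.07% higher and 1.33% lower of the genes it could adjust, and 6.92% and 4.13% before adjustment. With WT 1 left out 3 members were called higher and with WT 2 left out 4, while 14.9% and 12.8% of all tested genes were higher. With either KO library left out, 0 members were called higher, while 4.19% (without KO 1) and 4.9% (without KO 2) of all tested genes were. Both KO libraries lay above both WT libraries in 6 of the 10 genes and below them in 1, against 23.2% and 18% of all genes with any count.

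**Figure D1:**
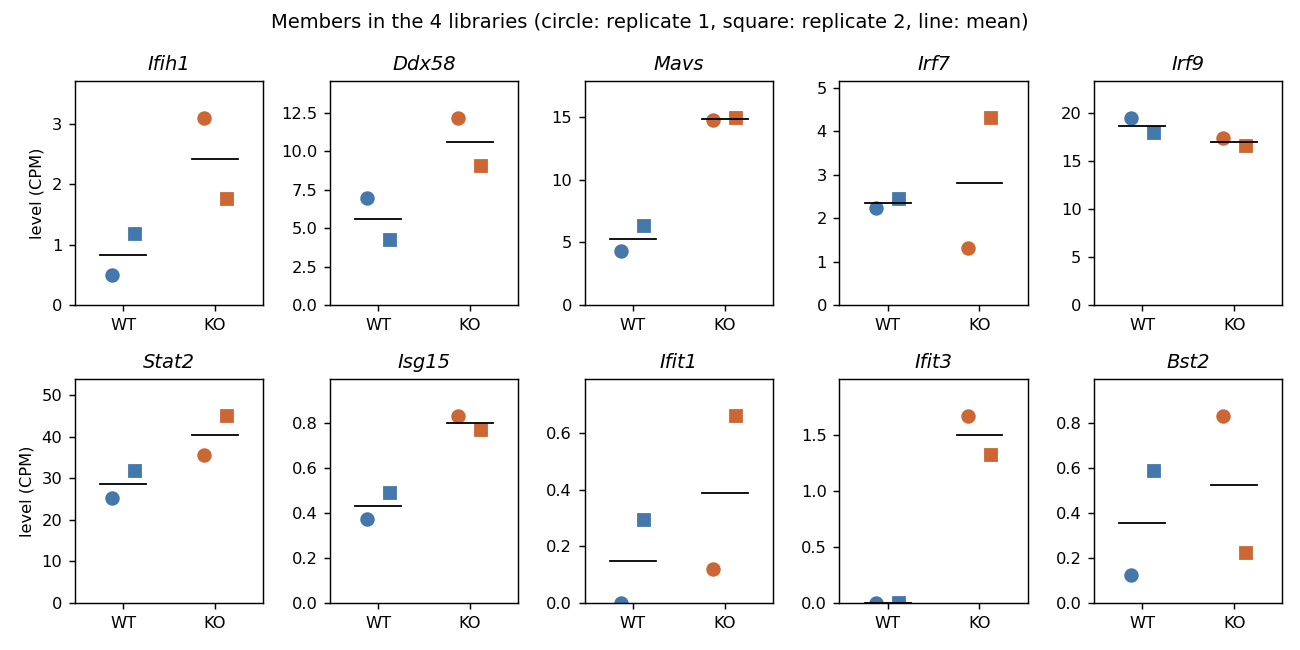
Level in CPM (vertical axis, from 0) of each member in the WT libraries (blue) and KO libraries (orange), with replicate 1 as a circle, replicate 2 as a square and the mean as a line. *Mavs* and *Ifit3* show KO values close together and apart from WT, whereas the KO values of *Irf7*, *Ifit1* and *Bst2* overlap with those of WT.

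*Ifih1* encodes MDA5, the sensor of long double-stranded RNA, and spans 62595798 to 62646255 of chromosome 2 in GRCm38, on the minus strand. It had 4 counts in WT 1, 12 in WT 2, 26 in KO 1 and 16 in KO 2, which corresponds to 0.497, 1.18, 3.09 and 1.76 CPM. Both KO libraries were above both WT libraries, but each genotype varied widely within itself, and the gene passed the filter only with its KO libraries. The log2 fold change of the level was 1.48 (SE 0.65, 95% interval -0.01 to 2.98, edgeR adjusted p = 0.224), and a difference could not be shown at these counts. Without WT 2 the log2 fold change was 2.25, and without WT 1 it was 1.02.

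*Ddx58* encodes RIG-I, the sensor of short RNA with a 5′ triphosphate, on chromosome 4 from 40203773 to 40239828 on the minus strand. Its counts were 56 and 43 in WT and 102 and 82 in KO, or 6.95 and 4.21 CPM against 12.1 and 9.03 CPM. The groups did not overlap, and the mean went from 5.58 ± 1.94 (SD, n = 2) up to 10.6 ± 2.19 CPM (SD, n = 2). The log2 fold change of 0.93 (SE 0.35, 95% interval 0.13 to 1.74) did not pass over all tested genes (edgeR adjusted p = 0.163). Leaving out WT 1 gave a log2 fold change of 1.32 with an adjusted p of 0.00743, whereas without any other library the gene did not pass.

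*Mavs*, the mitochondrial adaptor on which both sensors converge, lies on chromosome 2 from 131234063 to 131248025 on the plus strand. It had 35 counts in WT 1, 64 in WT 2, 124 in KO 1 and 135 in KO 2. Its level was 4.34 and 6.27 CPM in WT and 14.7 and 14.9 CPM in KO, so that the KO libraries were nearly equal and both above WT. *Mavs* rose 2.77-fold, from 5.31 ± 1.36 (SD, n = 2) in WT up to 14.8 ± 0.0891 CPM (SD, n = 2). The log2 fold change was 1.47 (SE 0.29, 95% interval 0.79 to 2.14, edgeR adjusted p = 0.0187). The call was lost without KO 1 (adjusted p = 0.106) and without KO 2 (adjusted p = 0.0666), with log2 fold changes between 1.23 and 1.77 over the fits that each left out 1 library.

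*Irf7*, the transcription factor that amplifies type I interferon production and is itself induced by interferon, lies on chromosome 7 from 141262706 to 141266481 on the minus strand. It had 18 and 25 WT counts against 11 and 39 KO counts. The KO libraries were thus the lowest and the highest of all, at 1.31 and 4.30 CPM around 2.23 and 2.45 CPM in WT. The log2 fold change was 0.26 with a 95% interval from -1.14 to 1.66 (edgeR adjusted p = 0.840), which allows for a change in either direction. Its sign turned without KO 2, to -0.83. The antisense neighbour *Phrf1* overlaps 1.19% of its exonic bases.

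*Irf9*, the DNA-binding subunit of the interferon-activated complex, is on chromosome 14 from 55603571 to 55610030 on the plus strand. It was read 157 and 183 times in WT and 147 and 151 times in KO, or at 19.5 and 17.9 CPM against 17.5 and 16.6 CPM. It was the only member with both KO libraries below both WT libraries, by less than the distance between the WT libraries, and *Rnf31* on the same strand overlaps 2.28% of its exonic bases. The log2 fold change was -0.13 (SE 0.21, 95% interval -0.61 to 0.34, edgeR adjusted p = 0.752).

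*Stat2*, which works with IRF9 in that complex, is on chromosome 10 from 128270559 to 128292849 on the plus strand. It had 204 and 323 WT counts and 300 and 408 KO counts, which are 25.3, 31.6, 35.7 and 44.9 CPM in this order. Both KO libraries were above WT, with a distance from the highest WT to the lowest KO value smaller than the distance within either genotype. The log2 fold change was 0.50 (SE 0.20, 95% interval 0.04 to 0.95, edgeR adjusted p = 0.184). Without WT 2 it was 0.67 with an adjusted p of 0.00388, and it did not pass without any other library.

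*Ifit3*, an antiviral protein with tetratricopeptide repeats that acts together with IFIT1, lies on chromosome 19 from 34583531 to 34588731 on the plus strand. It had 0 counts in both WT libraries, 14 counts in KO 1 and 12 in KO 2, or 1.66 and 1.32 CPM in KO. Against the floor of 3 counts in each WT library, its level was at least 4.48-fold higher in KO (edgeR adjusted p = 0.0216), and it entered the test only through its KO counts. Leaving out KO 1 or KO 2 gave an adjusted p of 0.1496 or 0.0551. Of its 50-base windows, 51.2% also occur in the paralogue *Ifit3b*, which had 0 counts in 3 libraries and 4 in KO 2. The treatment of reads with several matches is not given in the sources used here, so that the split of reads between the paralogues is uncertain.

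The other interferon-induced members were close to the limit of detection. *Isg15*, a ubiquitin-like protein that is conjugated to targets during the interferon response (chromosome 4, 156199424 to 156200818, minus strand), had 3 and 5 WT counts and 7 and 7 KO counts. Its level in KO was 1.83 times that in WT, with an exact 95% counting interval of 0.715 to 5.03 that includes no difference. *Ifit1*, which binds viral RNA that lacks a host-like cap (chromosome 19, 34640871 to 34650009, plus strand), had 0 and 3 WT counts and 1 and 6 KO counts. The genotypes overlapped, and the ratio of KO to WT was 2.44 (0.556 to 14.6). *Bst2*, or tetherin, which retains budding virus at the cell surface (chromosome 8, 71534255 to 71537456, minus strand), had 1 and 6 WT counts and 7 and 2 KO counts. It overlapped too, with a ratio of 1.34 (0.445 to 4.24). Without the filter on low counts, edgeR's adjusted p was 0.799 for *Isg15* and *Ifit1* and 0.898 for *Bst2*. *Isg15* and *Ifit3* were thus the interferon-induced members without overlap between genotypes, of which *Isg15* was under the expression filter.

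**Figure D2:**
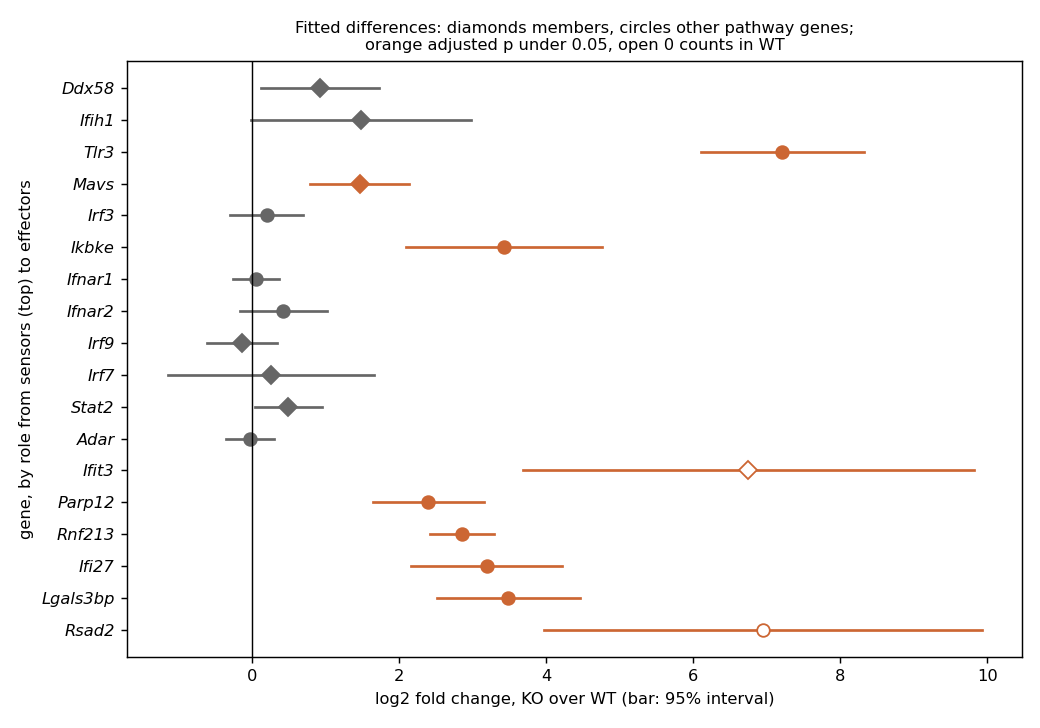
Log2 fold change of the level in KO over WT (horizontal axis) with its 95% interval, for the members (diamonds) and the named other genes of the pathway (circles), ordered by role from sensors to effectors. Orange marks an adjusted p under 0.05, and open symbols mark *Ifit3* and *Rsad2*, whose fitted values depend on the prior count because WT had 0 counts. The intervals of *Ifih1*, *Ifnar1*, *Ifnar2*, *Irf3*, *Irf7*, *Irf9* and *Adar* include 0.

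Per kilobase of exonic sequence, the members spanned a wide range of levels. In WT, *Stat2* was highest at 4.81 CPM per kb, followed by *Irf9* at 3.47 and *Mavs* at 1.59 CPM per kb, and these were separate from each other and from the next gene in both libraries. Below them, *Ddx58* at 0.792, *Irf7* at 0.620, *Isg15* at 0.570 and *Bst2* at 0.394 CPM per kb each overlapped with the next in order. *Ifih1* at 0.102 and *Ifit1* at 0.0553 CPM per kb followed, again with overlap, and *Ifit3* was at 0. In KO, *Stat2* stayed first at 6.80 CPM per kb, and *Mavs* at 4.43 CPM per kb stood above *Irf9* at 3.17 CPM per kb, the reverse of their order in WT. *Ddx58* at 1.501 and *Isg15* at 1.06 CPM per kb came next and were separate from their neighbours. *Ifit3* at 0.856, *Irf7* at 0.742, *Bst2* at 0.583, *Ifih1* at 0.297 and *Ifit1* at 0.147 CPM per kb overlapped one with the next. In both genotypes *Stat2* and *Irf9*, which receive the interferon signal, were thus read more than any of the 4 interferon-induced members.

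**Figure D3:**
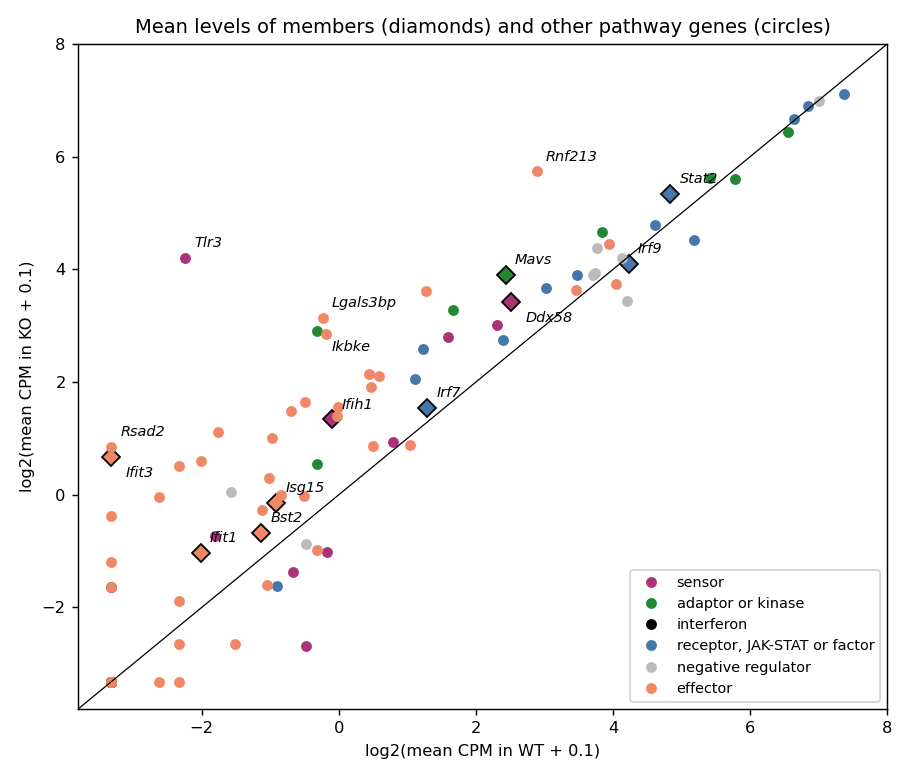
Mean level in WT (horizontal axis) against KO (vertical axis) for the members (diamonds) and the other genes of the pathway (circles), both as log2 of CPM + 0.1, coloured by role. The diagonal marks equal levels. *Irf9* lies close to it and *Mavs* above it, while *Tlr3* and *Rnf213* stand far above it and *Ifit3* and *Rsad2* lie at the left edge with 0 counts in WT.

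The remaining pathway was described with a list of 84 genes, of which 46 passed the expression filter. In KO, 7 of the 84 were higher and 0 were lower in edgeR. The shares of all tested genes, 7.33% and 0.57%, relate to the 46 that were tested. Of the 7 called genes, 5 entered the test only through their KO counts, so that nothing is read from the count. At an unadjusted p under 0.05, 22 were higher and 2, *Ifngr2* and *Socs3*, were lower in edgeR, where 14.6% and 8.01% of all tested genes were. Since 15 of these 22 needed their KO counts to pass the filter, nothing is read from this count either. DESeq2 called 8 higher and 0 lower after adjustment, and 17 and 2 before it. Over all genes in DESeq2, 6.07% were higher and 1.33% lower after adjustment, and 6.92% and 4.13% before it. The count of higher genes in edgeR was 19 without WT 1 and 17 without WT 2, fits in which 14.9% and 12.8% of all tested genes were higher. Both KO libraries lay above both WT libraries in 37 of the 71 listed genes with any count and below them in 7, next to 23.2% and 18% of all genes with any count. The median log2 fold change of the tested genes was 0.68, next to 0.93 for the 7 tested members and -0.03 for all tested genes. These medians are the same with *Ifit3* and *Rsad2* at their lower bounds. They too include genes that needed their KO counts to pass the filter. In the fit without a filter, the median was 0.65 for the list, 0.90 for the members and 0.04 for all genes with any count.

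Of 8 other nucleic acid sensors 4 were tested, and *Tlr3* was the one called higher, the endosomal receptor for double-stranded RNA. It had 1 count in each WT library against 170 in KO 1 and 149 in KO 2, or 0.124 and 0.0980 CPM against 20.2 and 16.4 CPM. This gives a ratio of 167 with a counting interval of 45.7 to 1381, and a fitted log2 fold change of 7.21 (SE 0.48, edgeR adjusted p = 5.21e-05). It entered the test only through its KO counts, as *Ifit3* did, which favours genes higher in KO without fixing the outcome. Its product signals through TICAM1 and not through MAVS. *Tlr7*, the endosomal sensor of single-stranded RNA, had 3, 0, 2 and 7 counts in WT 1, WT 2, KO 1 and KO 2.

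Of 7 adaptors and kinases of the list 6 were tested, and *Ikbke* was called, the inducible kinase that phosphorylates IRF3 and IRF7. It had 9 and 3 WT counts and 69 and 60 KO counts, with a log2 fold change of 3.43 (SE 0.58, edgeR adjusted p = 0.00824), and it too was tested only through its KO counts. Its constitutive relative *Tbk1* had 429 and 577 WT counts and 412 and 441 KO counts. *Irf3*, the factor that both kinases act on, had 270 and 530 WT counts and 426 and 436 KO counts. The KO values of *Irf3* lay between those of WT, and its log2 fold change was 0.20 (SE 0.22, edgeR adjusted p = 0.619). The log2 fold change of *Irf3* varied with the WT libraries, at 0.56 without WT 2 and -0.080 without WT 1.

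Interferon transcripts were nearly absent from the counts. *Ifnb1*, which encodes interferon beta, had 0 counts in all 4 libraries, which allows up to 3 counts in each. Of the 10 interferon genes in the list, 9 had 0 counts throughout, and *Ifnk* had 4 counts in KO 2 alone. A wider count, made after these values were seen, found 21 annotated interferon genes, 13 of them interferon alpha genes. Of the 21, 20 had no count in any library. Reads that match several genes may have been left uncounted, and sequence shared among the interferon alpha genes was not examined.

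Of 11 genes of the interferon receptors and their signalling chain, 10 were tested and 0 were called in either direction by edgeR. At an unadjusted p under 0.05, *Irf1* was higher and *Ifngr2* lower. *Ifnar1*, a chain of the type I interferon receptor, had 927 and 1163 WT counts and 1003 and 1084 KO counts. Its log2 fold change was 0.06 with a 95% interval from -0.26 to 0.38 (edgeR adjusted p = 0.840). *Ifnar2*, the other chain, had 86 and 116 WT counts and 108 and 153 KO counts (log2 fold change 0.43, edgeR adjusted p = 0.361). Neither chain of the receptor thus passed the test, as was the case for *Stat2* and *Irf9*.

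Of 9 negative regulators and nucleic acid processing enzymes, 6 were tested and none of these was called in edgeR at an adjusted p under 0.05, with *Socs3* lower at an unadjusted p under 0.05 in edgeR as well as in DESeq2. *Adar*, which edits double-stranded RNA and thereby limits MDA5 activation, had 993 and 1366 WT counts and 1031 and 1182 KO counts. Its log2 fold change was -0.02 (SE 0.14, edgeR adjusted p = 0.939), and the antisense gene *Chrnb2* overlaps 16.8% of its exonic bases. *Trex1*, the DNA exonuclease, was listed at 0 in every library, but all its exonic bases are shared with *Atrip*, so that this says nothing of its expression.

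Of 39 other interferon-induced effectors 20 were tested, and 5 were higher and 0 lower in KO, where 7.33% and 0.57% of all tested genes were. Among the 5, *Rsad2*, *Lgals3bp* and *Ifi27* entered the test only through their KO counts, so that nothing is read from this count. Both KO libraries lay above WT in 21 of the 36 with any count and below in 2, next to 23.2% and 18% of all genes with any count. *Rnf213*, a large ubiquitin ligase with antimicrobial activity, had 57 and 77 WT counts and 464 and 467 KO counts, or 7.08 and 7.54 CPM against 55.2 and 51.4 CPM. The libraries of each genotype were close together, and the log2 fold change was 2.86 (SE 0.19, edgeR adjusted p = 4.96e-05). *Lgals3bp*, a secreted glycoprotein, had 5 and 9 WT counts and 75 and 77 KO counts (log2 fold change 3.49, SE 0.42, edgeR adjusted p = 0.00154). *Ifi27*, a mitochondrial interferon-induced protein, had 7 and 7 WT counts and 63 and 62 KO counts (log2 fold change 3.19, SE 0.44, edgeR adjusted p = 0.00312). *Parp12*, an ADP-ribosyltransferase, had 19 and 23 WT counts and 114 and 99 KO counts (log2 fold change 2.40, SE 0.33, edgeR adjusted p = 0.00281). *Rnf213* and *Parp12* had enough WT counts to be tested on those alone, whereas *Lgals3bp* and *Ifi27* were tested only through their KO counts. With 1 library left out, the log2 fold change ranged from 2.81 to 2.92 for *Rnf213* and from 2.24 to 2.56 for *Parp12*. It ranged from 3.28 to 3.78 for *Lgals3bp* and from 3.02 to 3.35 for *Ifi27*.

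*Rsad2*, which encodes the antiviral enzyme viperin, resembled *Ifit3*, with 0 counts in both WT libraries, 13 in KO 1 and 17 in KO 2. This was at least 5.13-fold higher in KO against the floor of 3 counts per WT library (edgeR adjusted p = 0.0169), and the call was lost without KO 1 (0.0748) or KO 2 (0.0692). Not all interferon-induced genes were read. *Oas1a*, *Mx1* and *Ifi44* had 0 counts in every library, and 7 of the 39 effectors never exceeded 3 counts. Summed over the 39 genes, the level was 67.3 and 69.1 CPM in WT and 171 and 170 CPM in KO. *Rnf213* made up a large part of this difference, and without it the sums were 60.2 and 61.5 CPM in WT and 116 and 118 CPM in KO. Antisense genes overlap 8.74% of the exonic bases of *Rnf213*, 7.32% of *Tlr3*, 2.56% of *Irf3* and 2.48% of *Ikbke*, and another gene on the same strand overlaps 9.46% of *Ifnar2*, whereas *Mavs*, *Ifit3*, *Rsad2*, *Lgals3bp*, *Ifi27* and *Parp12* share none. The ISRE core was present in the promoter of 1 of the 6 called pathway genes with a RefSeq window, *Rsad2*.

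**Figure D4:**
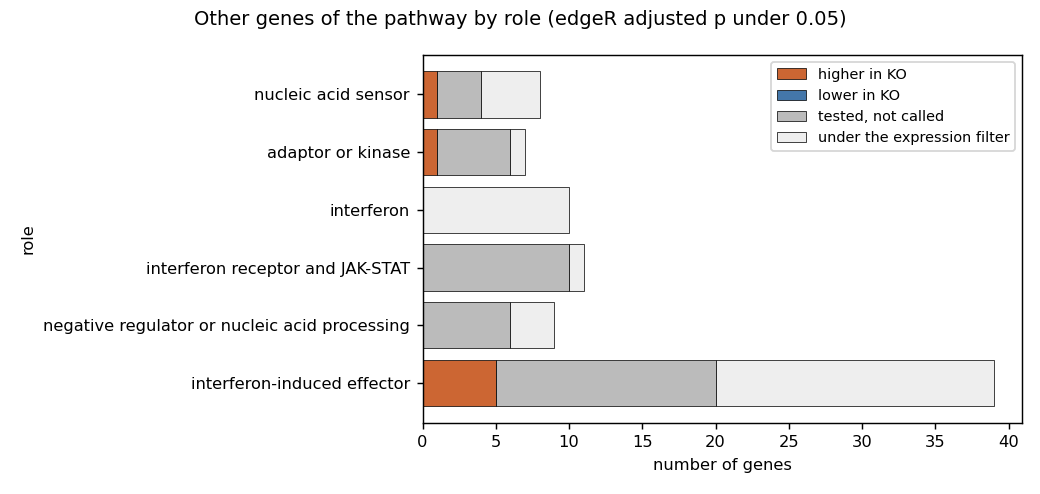
Number of genes (horizontal axis) in each role of the pathway list, divided into genes higher in KO (orange), tested but not called (grey) and under the expression filter (light). The 7 called genes fall on sensors, adaptors or kinases and effectors, and no gene was lower in KO.

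Markers of other cell types differed between genotypes in the same libraries. Of all tested genes, 7.33% were called higher and 0.57% lower in KO. In bulk samples, fewer cells of a type and less RNA per cell cannot be told apart. All 10 astrocyte markers were higher in KO, with a summed level of 234 to 243 CPM in WT and 3867 to 4071 CPM in KO, and *Gfap* had 0 counts in both WT libraries. Of 6 oligodendrocyte markers, 5 were higher (128 to 152 CPM against 541 to 560 CPM). Of 5 oligodendrocyte precursor markers, *Olig2* was called higher (list sums 1283 to 1339 CPM against 1631 to 1707 CPM). Both KO libraries lay above both WT libraries in all 5 precursor markers, next to 23.2% of all genes with any count. All 6 mural cell markers were higher in KO (57.7 to 63.5 CPM against 356 to 360 CPM), and *Acta2* had 0 counts in WT. The part of these cells in the levels of *Mavs*, *Ifit3*, *Tlr3* and the other called genes was not tested.

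Microglia are known for high expression of many genes of this pathway. Of 10 microglia markers 8 were tested and 1 was higher in KO, *Csf1r*, with 76 and 112 WT counts and 148 and 220 KO counts (log2 fold change 1.03, edgeR adjusted p = 0.0474). The summed level of the 10 was 30.3 to 32.6 CPM in WT and 56.0 to 61.9 CPM in KO. Of the 10, 6 had both KO libraries above both WT libraries and 0 had both below. Of all genes with any count, 23.2% lay above and 18% below in this way. *Cx3cr1* had 37 and 82 WT counts and 104 and 131 KO counts, whereas *P2ry12* had 50 and 49 against 46 and 44, and *Aif1* had 2 or 3 counts in every library. Of 8 endothelial markers 7 were tested and none of these was called in edgeR, with sums of 21.4 to 21.6 CPM in WT and 25.3 to 27.3 CPM in KO. *Pecam1* had 30 and 14 WT counts and 12 and 36 KO counts, and *Cdh5* had 8 to 11 counts in each library. Of the other endothelial markers, 4 had both KO libraries above both WT libraries and 2 had both below. The shares of all genes with any count were 23.2% and 18%. Of 8 general neuron markers, *Stmn2* and *Syt1* were lower in KO, with sums of 5544 to 6096 CPM in WT and 4130 to 4178 CPM in KO, and 0 of 7 markers of GABAergic neurons and the labelled cells were called, with sums of 1293 to 1417 CPM in WT and 1092 to 1204 CPM in KO.

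**Figure D5:**
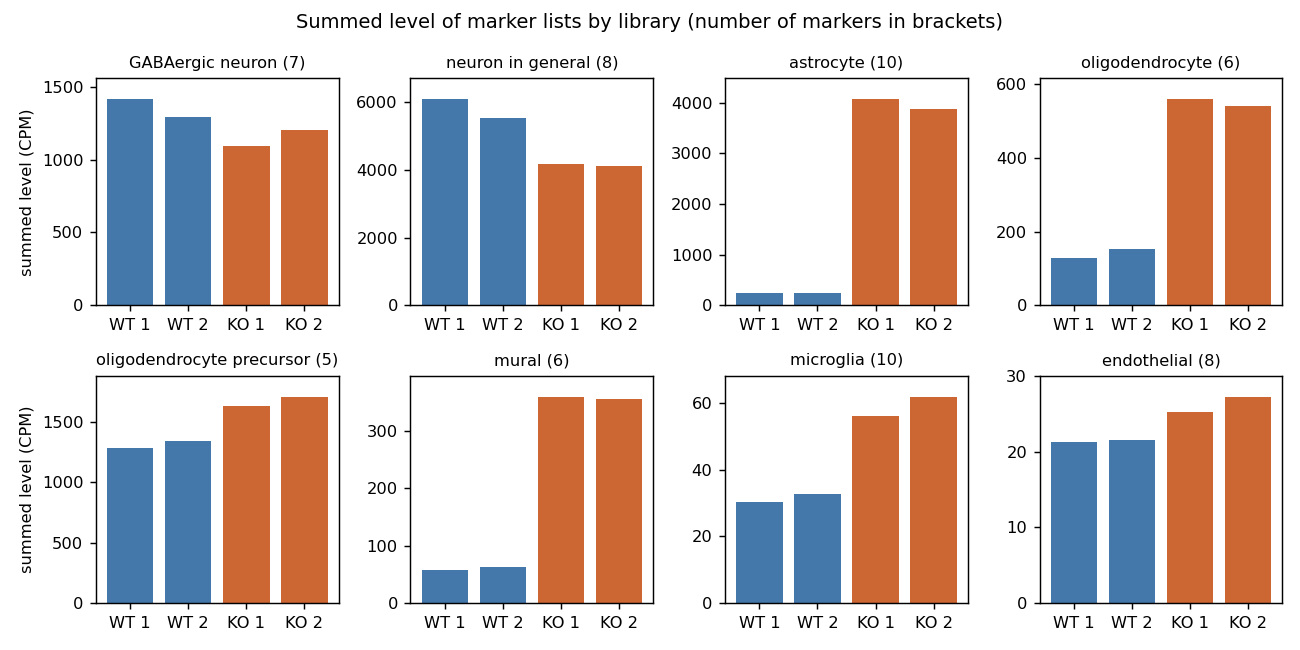
Summed level in CPM (vertical axis, from 0) of each marker list in the WT libraries (blue) and the KO libraries (orange), with the number of markers in brackets. The sums of the astrocyte, oligodendrocyte, oligodendrocyte precursor, mural, microglia and endothelial lists were higher in both KO libraries than in both WT libraries, and those of the neuron lists were lower.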

How the data were processed

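The values deposited by the authors were raw counts, 1 list of Ensembl genes per library. Per the submitters' processing notes, CASAVA 1.8.2, STAR 2.5.2a and featureCounts 1.5.0-p1 were used with the mm10 or GRCm38 genome. Their settings, the annotation release, the strand setting and the treatment of multi-mapping reads are not given in the sources used here. Reads of overlapping genes, antisense ones included, can therefore be shared.

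Of 55573 identifiers, 55480 matched GENCODE M21 (GRCm38), which supplied symbols, positions and exonic lengths. RefSeq supplied the promoter windows (GRCm38.p6). Counts were filtered with filterByExpr, normalized by TMM and compared in R 4.3.3 with the quasi-likelihood test of edgeR 4.0.16 (with limma 3.58.1), fitting genotype alone. Benjamini-Hochberg adjustment covered all tested genes. Standard errors were derived from the test statistic. A level at 0 counts in WT was bounded with a floor of 3 counts per library. Exact counting intervals have a confidence level of 95%. With 2 libraries against 2, an exact permutation test cannot give a p below 0.333 and was not used. The procedures were tested on simulated data.

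The genes named were the 10 members, *Dnmt1*, every called pathway gene up to 12 per direction, *Ifnb1*, *Ifnar1*, *Ifnar2*, *Irf3* and *Adar* in any case, and called or defining cell type markers. *Tlr7*, *Tbk1*, *Ifnk*, *Trex1*, *Oas1a*, *Mx1*, *Ifi44*, *Irf1*, *Ifngr2*, *Socs3*, *Olig2*, *Stmn2* and *Syt1* were named after their values were seen. A further gene that this rule names is not reported here. The members and lists were chosen with earlier results of these data known. The alternatives were DESeq2 1.42.0, its size factors, library size alone, no filter, at least 10 counts per library, a replicate block, a length and GC correction, and each library left out in turn.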

Additional observations from a re-analysis of the deposited data

How the results depend on the processing

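*Mavs* passed under all 7 alternatives that kept every library (log2 fold change 1.35 to 1.57), and *Ifit3* under the 6 that could test it. With at least 10 counts in every library, *Ifit3* was not tested and 1 member was higher. Leaving out 1 library gave 0 to 4 higher members, 0 without either KO library. These fits left 1 library in a genotype, which was assumed to vary like the others. The pathway list had 14 higher genes with library size alone, 16 without a filter, 2 with at least 10 counts and 16 with the length and GC correction, and 6 to 19 with 1 library left out. In the same fits 10%, 5.97%, 5.81%, 11.3% and 4.19% to 14.9% of all tested genes were higher. Lower genes of the list numbered 1 without a filter, 1 with the replicate block and 2 with the correction, and 0 to 3 with 1 library left out, where 1.91%, 3.68%, 5.44% and 0.119% to 12.7% of all tested genes were lower.

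Over all genes, the correction gave 1908 higher genes, and leaving out 1 library gave 706 to 2514, against 1233. Lower genes, 96 in the analysis as reported, numbered 252 with DESeq2, 573 without a filter, 52 with at least 10 counts, 619 with the replicate block and 915 with the correction, and 20 to 2144 with 1 library left out. The share of higher genes among the called ones was 92.8%, and it was 82.0% with DESeq2, 75.8% without a filter, 72.4% with the block, 67.6% with the correction, 67.8% without WT 1 and 50.1% without WT 2. The deviations of same-numbered libraries had a correlation of 0.137 over all genes, and these libraries share only a number. The replicate block left 2 higher members and gave 10 higher genes of the list, with 9.65% of all tested genes higher.

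*Dnmt1* passed the threshold with DESeq2 (-0.58), its size factors (-0.57), no filter (-0.55), the replicate block (-0.56) and the correction (-0.59), with values of -0.67 to -0.45 when 1 library was left out. *Adar* changed sign with library size alone (0.082) and with at least 10 counts (0.011), and over the fits without 1 library it ranged from -0.088 to 0.036. *Irf7* ranged from -0.83 to 0.87 and *Irf3* from -0.080 to 0.56 in these fits. The cause of these differences was not tested. The depth limits *Isg15*, *Ifit1*, *Bst2* and the interferon genes, whose counts were near the floor of 3 per library.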
